A study of Mus musculus with 8 samples.

Results

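The VEGF and angiopoietin ligands and receptors were followed in cardiomyocytes from newborn mice, as 10 genes that were all found by symbol among 48440 entries of the count table. They are the ligands Vegfa, Vegfb, Vegfc, Pgf, Angpt1 and Angpt2 and the receptors Kdr, Flt1, Tek and Tie1, chosen by name. The 8 libraries came from purified cardiomyocytes of C57BL6/J pups on postnatal day 2, with no treatment or transgene named in the labels. Each of 4 litters gave 1 male and 1 female heart, which makes 4 libraries per sex and 2 per litter. Sex and litter are the comparisons that this layout allows. How the cells were purified is not given in the sources used here.

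VEGF ligands are secreted proteins that guide the growth and survival of blood vessels. Kdr carries most of the growth signal of Vegfa into endothelial cells, while Flt1 binds Vegfa, Vegfb and Pgf and can hold ligand back. Angpt1 activates the endothelial receptor Tek and keeps vessels stable, Angpt2 mostly opposes it, and Tie1 is a partner of Tek with no strong ligand of its own. In the heart, muscle cells are a known source of Vegfa and Vegfb, and the receptors are known chiefly from the vessel lining.

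Total counts ran from 14226342 to 24910243 per library. The 3 defining cardiomyocyte markers Tnnt2, Actn2 and Ryr2 summed to between 16446 and 18366 CPM (read counts scaled to the size of the library), and the 4 defining endothelial markers Pecam1, Cdh5, Emcn and Erg to between 7.68 and 79.2 CPM, with none of them at 0 in any library. Fewer cells of a type and less RNA per cell cannot be told apart in such bulk samples. The labels name no preparation date, so an effect of handling cannot be told apart from one of litter.

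Per length, the ligands Vegfb and Vegfa led the group and all 4 receptors lay far below them. Vegfb had 117 ± 7.51 and Vegfa 112 ± 15.5 CPM per kilobase of exon (SD, n = 8), and their ranges overlapped, with Vegfb higher in 5 of 8 libraries. Angpt1 followed at 8.46 ± 4.24 and Vegfc at 1.72 ± 0.173 CPM per kilobase, each below its upper neighbour in 8 of 8 libraries with no overlap of ranges. Tie1 (1.25 ± 1.14), Tek (1.19 ± 0.939), Kdr (0.802 ± 0.793) and Flt1 (0.269 ± 0.245 CPM per kilobase) came next. Vegfc exceeded Tie1 in 6 of 8 libraries and Tie1 exceeded Tek in 4 of 8, so these neighbours could not be ordered. Tek was above Kdr, and Kdr above Flt1, in 8 of 8 libraries although their ranges over libraries overlapped. By the longest transcript in place of the exon union, Kdr ranked above Tek. Pgf (0.183 ± 0.0647) and Angpt2 (0.0776 ± 0.0437 CPM per kilobase) were lowest, and Flt1 exceeded Pgf in only 4 of 8 libraries.

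**Figure D1:**
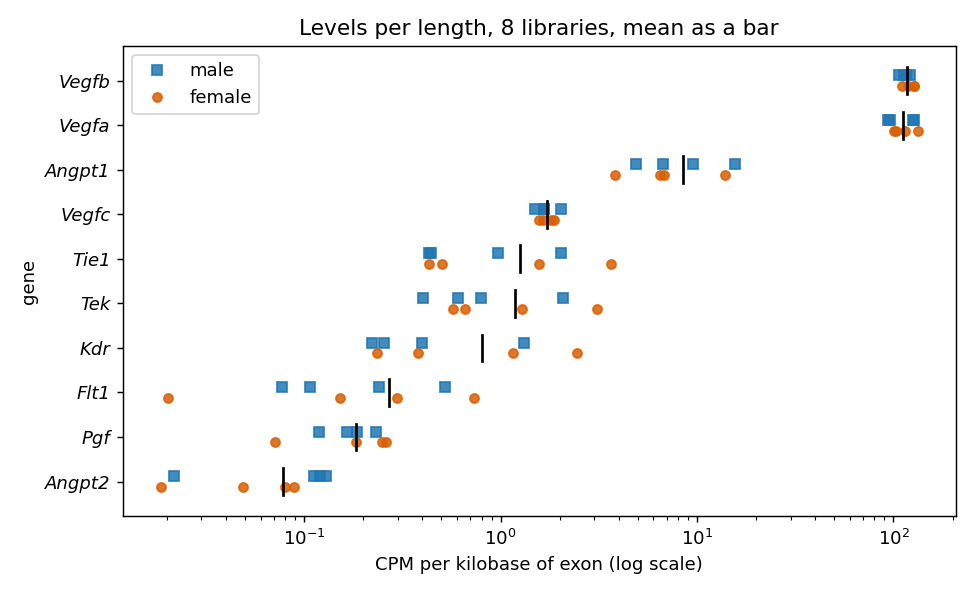
Levels of the 10 genes in CPM per kilobase of exon on a log axis, with squares for the 4 males, circles for the 4 females and a bar at the mean of 8 libraries. Vegfb and Vegfa sit near 117 and 112, Angpt1 spreads from 3.80 to 15.6, and the 4 receptors spread over much wider ranges than Vegfc.

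Vegfa, the main growth signal for vessels, lies at chr17:46016993-46032369 on the minus strand (GRCm38). It had 548, 538, 411 and 399.9 CPM in the males of litters 1 to 4 and 569, 488, 444 and 431 CPM in the females, from 6446 to 13835 counts. Litter 1 was above litter 2 in both sexes, and litter 2 lay above every library of litters 3 and 4. Vegfa differed between litters with a log2 range of 0.43 (edgeR adjusted p = 0.0033). Against the mean of the other 3 litters it was higher by 0.31 in litter 1 (SE 0.06, edgeR adjusted p = 0.00669) and lower in litter 3 (-0.20, SE 0.06, 0.0314) and litter 4 (-0.26, SE 0.06, 0.0267) on the log2 scale.

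These single-litter calls for Vegfa each rested on both libraries of the litter. Without the male or the female of litter 1, its edgeR adjusted p in litter 1 was 0.114 or 0.15. In litter 3 the call was lost without the male (0.28) or female (0.0906) of that litter, the male (0.0668) or female (0.0778) of litter 1, or the male of litter 2 (0.0708), and with library size alone (0.0802). In litter 4 it was lost without the male (0.201) or female (0.0754) of that litter, or the male (0.0638) or female (0.0741) of litter 1. The sign of Vegfa was the same in all these fits, and the test over the 4 litters kept it past the threshold without any 1 library, at 0.0236 at most. The summed cardiomyocyte markers were lowest in litter 3, at 78390 and 79056 CPM, while the other 6 libraries had 90560 to 103086 CPM. Of these 12 markers 6 fell and 1 rose in litter 3, and the 3 defining ones summed to 17216 and 17810 CPM there, above every other library but the female of litter 4. Their part in the level of Vegfa was not tested.

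Vegfb, a ligand of Flt1 linked to fatty acid handling and to coronary vessels, lies at chr19:6982473-6987651 on the minus strand. It was the steadiest of the 10 genes, with a coefficient of variation of 6.4% over the 8 libraries against 13.9% for Vegfa. Its values were 185, 194, 171 and 181 CPM in the males of litters 1 to 4 and 191, 204, 177 and 204 CPM in the females, the female being higher in 4 of 4 litters. The difference by sex was small, at -0.08 for male minus female (SE 0.08, edgeR adjusted p = 0.999612), and neither it nor the difference over litters (log2 range 0.19, 0.165) passed the test. With litter mates paired as a block, the difference by sex was -0.08 (SE 0.05, unadjusted p = 0.114, edgeR adjusted p = 0.533) and did not pass either. Vegfc, the lymphatic growth factor at chr8:54077606-54187096 on the plus strand, had 3.69 to 4.98 CPM over the 8 libraries, from 56 to 124 counts. The log2 range of Vegfc over litters, 0.31, did not pass (edgeR adjusted p = 0.493).

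Pgf, placental growth factor, at chr12:85166635-85177790 on the minus strand, had 3 to 18 counts per library. Its lowest values were 0.347 and 0.206 CPM in the male and female of litter 3, and the other 6 libraries lay between 0.482 and 0.756 CPM. The log2 range over litters was 1.27 and did not pass (edgeR adjusted p = 0.207). Angpt2 had 1 to 11 counts per library, or 0.0688 to 0.477 CPM, did not pass the filter on low counts and was not tested. It lies at chr8:18690263-18741562 on the minus strand, within the span of Mcph1 on the opposite strand, with 0 exon bases in common.

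Among the 5 tested ligands of the 10 genes, Angpt1 had the widest log2 range over litters. It had 25.4, 34.9, 81.0 and 49.4 CPM in the males of litters 1 to 4 and 19.8, 35.4, 72.6 and 33.7 CPM in the females, from 481 to 1866 counts. Both libraries of litter 3 lay above all others and both of litter 1 below all others. Over litters the log2 range was 1.77 (edgeR adjusted p = 1.07e-05). Angpt1 rose by 1.26 in litter 3 (SE 0.09, edgeR adjusted p = 2.81e-06) and fell by 1.10 in litter 1 (SE 0.10, 6.37e-05) against the other litters, and both calls held whichever of the 8 libraries was left out.

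Angpt1 lies at chr15:42424723-42676977 on the minus strand, and 14.2% of its exon union is shared with Gm17473, annotated on the opposite strand. Gm17473 had 8 to 32 counts per library, and since the sources used here do not say how strand was treated in counting, reads over that stretch cannot be assigned to a strand here. For the other 9 members no 100-base window of the longest transcript occurred in another gene. Summed endothelial markers were 27.5 and 30.9 CPM in litter 3, where Angpt1 was high, and 24.9 and 81.8 CPM in litter 1, where it was low. Summed mural markers, for the pericytes and smooth muscle cells that are another known source of Angpt1, were lowest in litter 3, at 453 and 424 CPM, with 881 to 1142 CPM elsewhere. The 3 defining ones are a small part of that sum. They were lowest in litter 3 as well, at 2.82 and 2.06 CPM, with 5.25 to 19.6 CPM elsewhere. Fibroblast markers were also lowest there, at 53.8 and 33.2 CPM against 113 to 251 CPM. Summed erythroid markers were 463 CPM in the male of litter 3 and 161 CPM in the female, while the other 6 libraries had 85.9 to 213 CPM. The part of these cell types in the level of Angpt1 was not tested.

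The 4 receptors were all highest in litter 2. Kdr, at chr5:75932827-75978458 on the minus strand, had 2.01, 11.9, 2.30 and 3.57 CPM in the males of litters 1 to 4 and 10.5, 22.1, 2.13 and 3.44 CPM in the females, from 31 to 491 counts. Its values in both libraries of litter 2 lay above all others, and the female of litter 1 came next, far above the male of that litter. Flt1, at chr5:147561604-147726011 on the minus strand, had 1.45, 7.03, 1.04 and 3.24 CPM in the males and 4.03, 9.94, 0.275 and 2.06 CPM in the females. Its lowest value, in the female of litter 3, rests on 4 counts. Tek, at chr4:94739289-94874976 on the plus strand, had 1.89, 9.82, 2.86 and 3.74 CPM in the males and 6.09, 14.5, 3.10 and 2.69 CPM in the females.

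Tie1, at chr4:118471191-118490061 on the minus strand, had 2.13, 10.02, 2.17 and 4.75 CPM in the males and 7.69, 17.9, 2.13 and 2.48 CPM in the females. As with the other 3 receptors, both libraries of litter 2 were above all others, and the female of litter 1 came next. The highest library exceeded the lowest by 11 times for Kdr, 36.1 times for Flt1, 7.7 times for Tek and 8.41 times for Tie1. The same ratio was 1.42 for Vegfa, 1.19 for Vegfb and 1.35 for Vegfc.

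**Figure D2:**
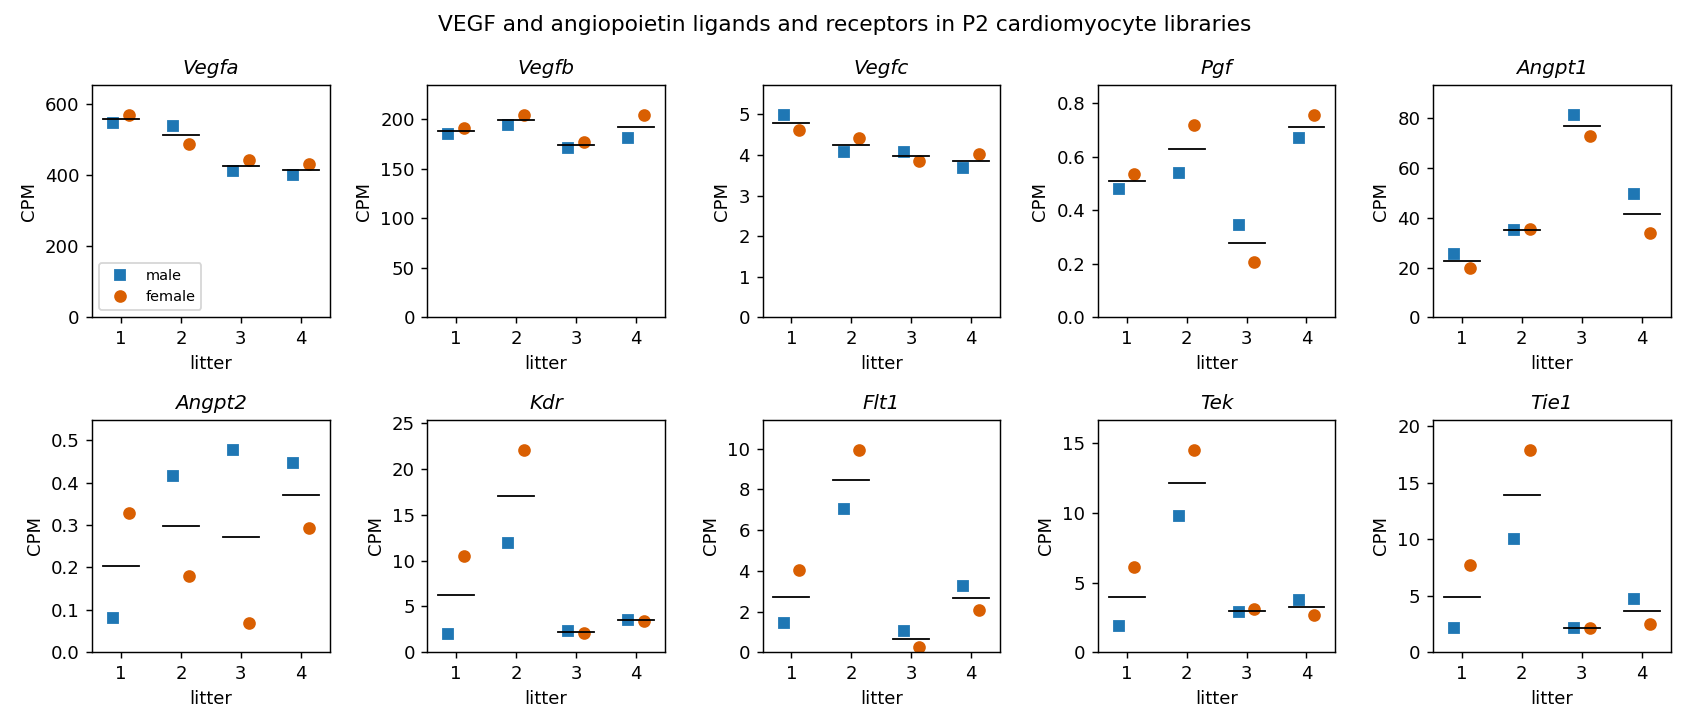
CPM of each of the 10 genes by litter, with squares for males, circles for females and a line at the mean of the 2 libraries of a litter; each axis starts at 0 and has its own scale. The 4 receptors peak in litter 2 and split by library in litter 1, Angpt1 peaks in litter 3 at 72.6 and 81.0 CPM, and Vegfb stays between 171 and 204 CPM.

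Of the 9 members tested, 6 differed between litters: Vegfa, Angpt1, Kdr, Flt1, Tek and Tie1. Over all genes the same edgeR test called 32.1%. For the receptors the log2 ranges over litters were 2.81 for Kdr (edgeR adjusted p = 0.00104), 3.48 for Flt1 (0.00149), 1.98 for Tek (0.00149) and 2.61 for Tie1 (0.00286). The median range was 1.77 over the 9 members and 0.37 over all genes. The 6 members passed without any 1 library, but the size of the ranges moved with the pair of litter 3. Without its female the range was 2.28 for Kdr and 2.77 for Flt1, and without its male 3.47 and 5.13. Without litter 2, 3 of 9 members passed, a share like that over all genes, where 4586 of 13740 did. The 3 were Vegfa, Angpt1 and Flt1, while Kdr (log2 range 1.23, edgeR adjusted p = 0.125), Tek (0.32, 0.762) and Tie1 (1.09, 0.211) did not pass.

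Set against the other 3 litters, all 4 receptors rose in litter 2, and no other member was called there. The log2 fold changes were 2.21 for Kdr (SE 0.28, edgeR adjusted p = 0.0011), 2.27 for Flt1 (SE 0.32, 0.00171), 1.85 for Tek (SE 0.25, 0.00139) and 2.03 for Tie1 (SE 0.31, 0.00278). Over all genes 4.18% were called in litter 2, 3.3% higher and 0.879% lower. Without the female of litter 2, Kdr and Tek passed, while Flt1 (2.07, edgeR adjusted p = 0.0527) and Tie1 (1.79, 0.088) did not.

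In litter 3, 4 members were lower and Angpt1 was higher, where 28.3% of all genes were called, 14.8% lower and 13.6% higher. Besides Vegfa, Kdr fell by 1.54 (SE 0.40, edgeR adjusted p = 0.0133), Flt1 by 2.37 (SE 0.48, 0.00369) and Tie1 by 1.45 (SE 0.42, 0.0219). For Flt1 the difference was -1.65 without the female of litter 3, which had 4 counts, and -4.01 without the male. For Kdr these values were -0.98 and -2.18. Tek, at -0.79, did not pass (SE 0.31, 0.0799). Without the female of litter 3, Kdr (edgeR adjusted p = 0.206) and Tie1 (0.192) lost the call, and Tie1 lost it without the male (0.0537). In DESeq2 the adjusted p was 0.0615 for Kdr and 0.0849 for Tie1. In litter 1 the members called were Vegfa, higher, and Angpt1, lower, where 13.3% of all genes were called, 7.86% higher and 5.41% lower. In litter 4 Vegfa alone was called, lower, where 10.5% of all genes were called, 4.71% higher and 5.8% lower. With no filter on low counts, Kdr, Tek and Tie1 were called lower in litter 4 too, where 2072 of 24853 genes were called. The 4 comparisons share libraries and are not independent.

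**Figure D3:**
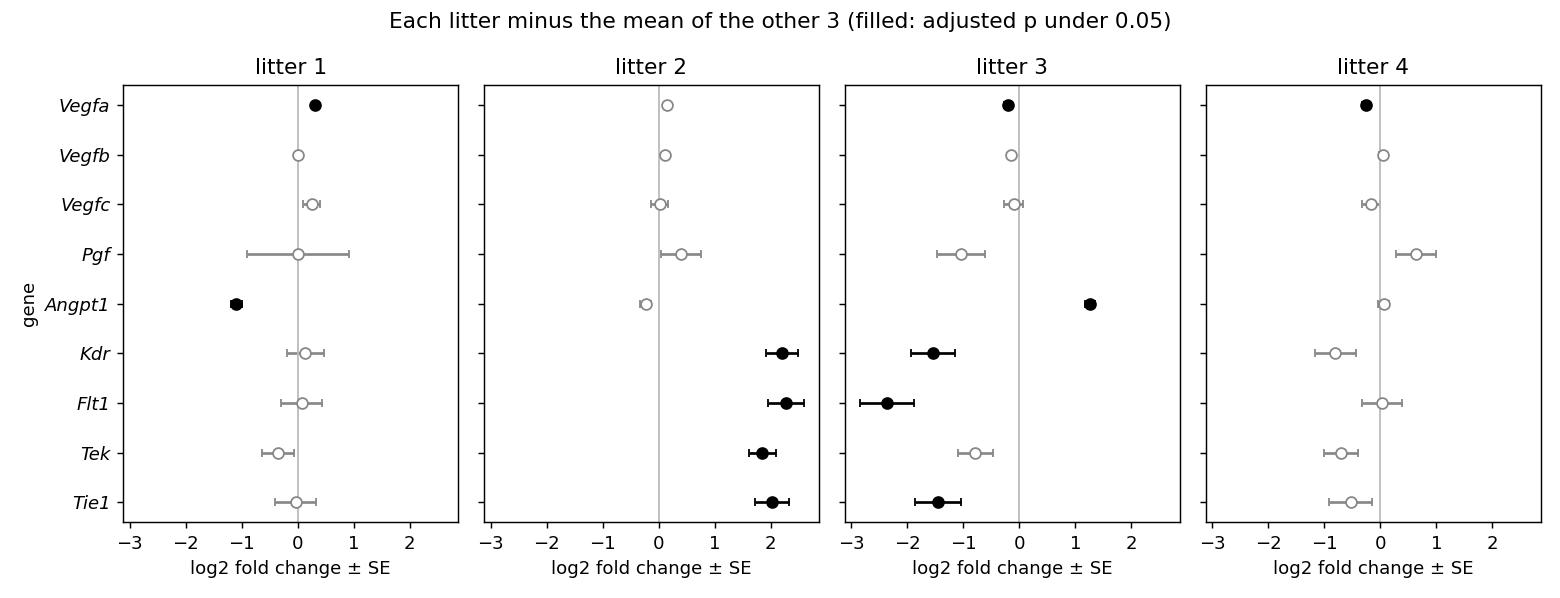
Log2 fold change with its standard error for the 9 tested genes, for each litter minus the mean of the other 3; filled points had an edgeR adjusted p under 0.05. In litter 2 the 4 receptors stand between 1.85 and 2.27 while the 5 ligands stand at 0.40 or below, and in litter 3 Angpt1 stands at 1.26 with 3 receptors called below 0.

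The endothelial marker list, which holds none of the members, moved with the receptors. In litter 2, 18 of its 18 tested genes rose (median 1.93), and 7 were called without the female of that litter. In litter 3, 11 of 18 fell (median -1.44), with 6 without the male and 2 without the female of that litter. In the males of litters 1 to 4 its 19 genes had a summed level of 24.9, 120, 27.5 and 50.4 CPM. In the females the sum was 81.8, 195, 30.9 and 39.6 CPM. Likewise the summed level of the 4 receptors was 7.47, 38.8, 8.37 and 15.3 CPM in the males and 28.3, 64.4, 7.64 and 10.7 CPM in the females. In both sums the female of litter 2 was highest, followed by the male of litter 2 and the female of litter 1. The contrast of the female with the male of litter 1 was likewise present in both sums. Markers of other cell types differed between litters too, in part along with the receptors. Of 10 fibroblast markers, 7 rose in litter 2 (median 0.90) and 8 fell in litter 3 (median -1.91). Unlike the receptors, 8 of the 10 also rose in litter 4 (median 0.71), with 2 called without the male of that litter, and 3 rose in litter 1, with 0 called when its female was left out. Their summed level was 251 and 157 CPM in the male and female of litter 2 and 53.8 and 33.2 CPM in litter 3, but in the male of litter 4, at 238 CPM, it exceeded that in the female of litter 2. Of 8 mural markers, 4 rose in litter 2 (median 1.03), with 2 called without the male and 1 without the female of that litter. In litter 3, 5 of 8 mural markers fell (median -1.56), with 3 called without the male of that litter. In litter 4, 3 mural markers rose, with 1 called without its male. The 8 mural markers summed to 988 and 907 CPM in litter 2, which is no peak beside 1142 and 986 CPM in litter 4. The 3 defining ones among them summed to 13.8 and 19.6 CPM in litter 2 and to 2.82 and 2.06 CPM in litter 3. The 3 endocardial markers were highest in litter 2 as well, at 21.9 and 21.0 CPM, with 7.03 to 12.4 CPM elsewhere. The part of any of these cell types in the receptor levels was not tested.

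Each receptor was then set beside the list within a library, as its log2 CPM minus the mean log2 CPM of the 18 markers. The SD over 8 libraries was 1.30 for the log2 level of Kdr and 0.33 for its difference from the list. It went from 1.18 to 0.23 for Tie1, from 1.00 to 0.24 for Tek and from 1.54 to 0.83 for Flt1. With the 4 defining markers in place of the list, the SD for Tek was 0.39. The difference for Flt1 lay between 0.07 and 0.65 in 7 libraries and at -1.87 in the female of litter 3, where it had 4 counts. For the ligands the same step widened the spread, from 0.20 to 1.01 for Vegfa, from 0.09 to 1.01 for Vegfb, from 0.14 to 1.07 for Vegfc and from 0.70 to 1.48 for Angpt1. Pearson's r with the list, over 8 libraries that share depth and scaling, was 0.98 for Kdr, Tek and Tie1 and 0.85 for Flt1, and 0.36 for Vegfa, 0.67 for Vegfb, 0.05 for Vegfc and -0.38 for Angpt1. For Pgf and Angpt2, which had few counts, it was 0.52 and 0.22.

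**Figure D4:**
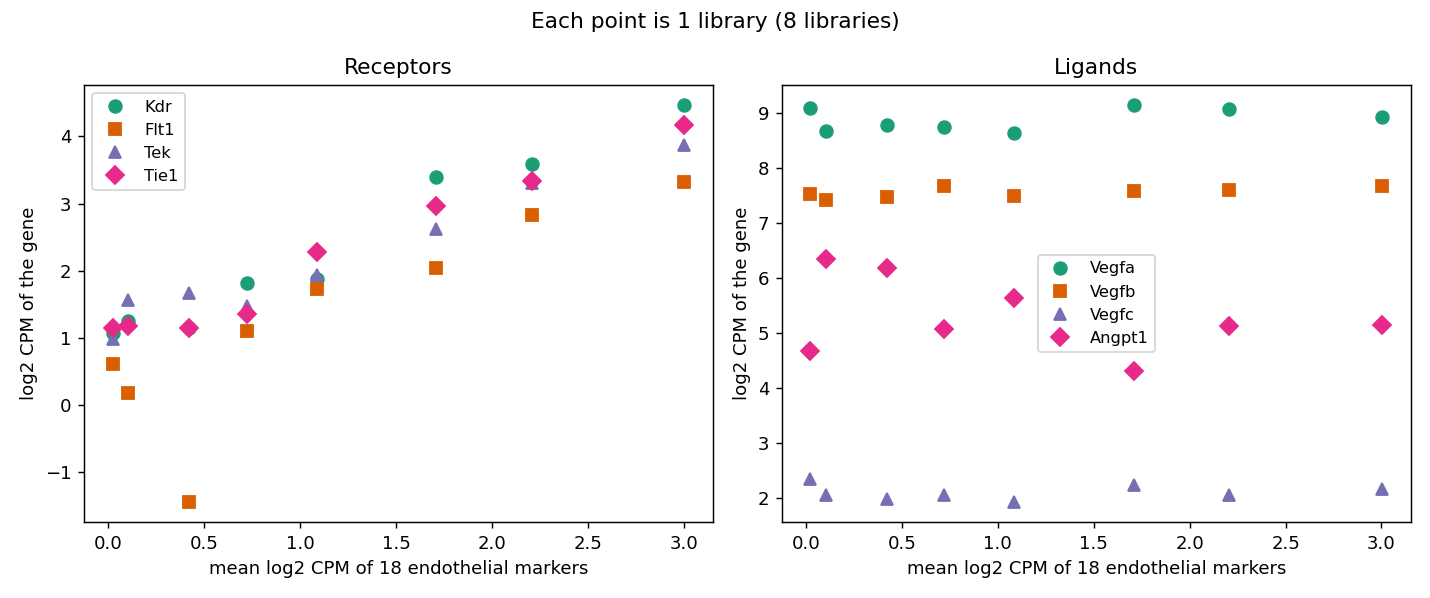
Log2 CPM of each gene against the mean log2 CPM of 18 endothelial markers, 1 point per library, with receptors on the left and ligands on the right. Kdr, Tek and Tie1 climb with the markers at an r of 0.98, 1 low point of Flt1 comes from the female of litter 3, and Vegfa, Vegfb and Vegfc span far narrower ranges, with an r of 0.36, 0.67 and 0.05.

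The tested genes outside the 10 whose log2 CPM was most like that of Kdr were Notch4, Cyyr1, Pecam1, Kif26a and Cdh5, each with an r of 0.99 over 8 libraries. Pecam1 and Cdh5 are junction proteins of the vessel lining, and they ran from 2.69 to 24.0 CPM and from 3.90 to 43.0 CPM. For Vegfa they were Gm43054, Zc3h7a, Mphosph9, Lyrm9 and Ppm1e, with r from 0.98 to 0.99. None of these 5 is an endothelial marker of the list, and Zc3h7a ran from 50.6 to 62.6 CPM.

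For the 4 receptors, the 250 bases before their RefSeq start sites (GRCm38.p6) are shown with those of Vegfa, the main ligand of Kdr. Entries were matched for 8 of 10 members, without Angpt1 and Angpt2. The windows are chr5:75978456-75978705 (minus) for Kdr, chr5:147726012-147726261 (minus) for Flt1, chr4:94739039-94739288 (plus) for Tek, chr4:118489850-118490099 (minus) for Tie1 and chr17:46032378-46032627 (minus) for Vegfa. Most of the Tie1 window lies inside the gene span given above, which begins upstream of this RefSeq start. Capitals mark matches on either strand to AGGAAG or CGGAAG, letters bound by ETS factors, or to ACGTG or GCGTG, the core bound by hypoxia-inducible factors.
Kdr: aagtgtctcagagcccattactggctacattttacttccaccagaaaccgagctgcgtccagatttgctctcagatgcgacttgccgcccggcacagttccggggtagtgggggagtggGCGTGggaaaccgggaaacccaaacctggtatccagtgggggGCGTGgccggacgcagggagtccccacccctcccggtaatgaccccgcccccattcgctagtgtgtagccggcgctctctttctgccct
Flt1: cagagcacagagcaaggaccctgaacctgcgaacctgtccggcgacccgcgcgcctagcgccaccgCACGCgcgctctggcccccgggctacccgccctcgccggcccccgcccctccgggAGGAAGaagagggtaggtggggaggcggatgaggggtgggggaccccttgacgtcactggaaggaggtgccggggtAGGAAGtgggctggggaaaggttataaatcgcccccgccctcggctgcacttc
Tek: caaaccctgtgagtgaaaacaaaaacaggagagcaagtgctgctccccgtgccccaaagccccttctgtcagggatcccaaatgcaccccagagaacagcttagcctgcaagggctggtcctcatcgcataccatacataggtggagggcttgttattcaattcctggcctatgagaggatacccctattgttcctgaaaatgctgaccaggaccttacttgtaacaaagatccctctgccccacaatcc
Tie1: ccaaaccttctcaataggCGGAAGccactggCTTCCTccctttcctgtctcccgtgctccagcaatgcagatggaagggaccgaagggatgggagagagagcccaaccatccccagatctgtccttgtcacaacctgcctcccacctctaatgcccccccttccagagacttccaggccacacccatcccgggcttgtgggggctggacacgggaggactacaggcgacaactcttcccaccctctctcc
Vegfa: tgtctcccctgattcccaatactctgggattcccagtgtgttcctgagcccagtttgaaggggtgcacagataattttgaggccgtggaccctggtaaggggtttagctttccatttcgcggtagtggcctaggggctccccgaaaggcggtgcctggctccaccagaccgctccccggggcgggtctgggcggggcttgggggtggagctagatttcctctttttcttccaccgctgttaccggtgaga

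No motif of the 2 kinds was present in all 4 receptor windows. The ETS letters were found 2 times in Flt1 and 2 times in Tie1 and not in Kdr, Tek or Vegfa, while 39.2% of 32851 promoter windows of this length hold them. The hypoxia core was found 2 times in Kdr and 1 time in Flt1 and not in Tek, Tie1 or this Vegfa window, against 38.6% of all windows. In the window before another RefSeq start of Vegfa, at chr17:46025164-46025413 (minus), it was found 2 times. GGGCGG, bound by Sp1, was found 2 times in Kdr, 3 times in Flt1 and 2 times in Vegfa and is held by 32.7% of windows. AGATAA, bound by GATA factors, was found 1 time in Vegfa and is held by 9.99% of windows. The hypoxia core can lie within CACGTG, which other factors bind. GC content was 61.6% for Kdr, 70.4% for Flt1, 51.2% for Tek, 60.4% for Tie1 and 59.2% for Vegfa. These matches are descriptions of the letters and not of binding.

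The other genes of the pathway, a list of 41 in the table of which 37 were tested, also differed between litters. In the litter test 24 of 37 passed, which is 64.9% against 32.1% of all genes, and the median log2 range was 0.63 against 0.37. In litter 2, 15 of 37 were higher and 0 lower (7 without the female of litter 2), with a median of 0.48 against 0.00 over all genes. In litter 3, where 13.6% of all genes were called higher and 14.8% lower, 2 were higher and 17 lower (12 called without the male and 6 without the female of that litter). Many of these genes are also known from endothelial cells, and the endothelial sums are given above.

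Among co-receptors, Nrp1 stood apart from its paralogue Nrp2. Nrp1, which binds Vegfa and semaphorins, had 149, 169, 155 and 140 CPM in the males of litters 1 to 4 and 164, 143, 130 and 117 CPM in the females. Its log2 range over litters was 0.30 and did not pass (edgeR adjusted p = 0.0869). Nrp2, a co-receptor for Vegfc, had 1.28, 5.53, 0.781 and 1.90 CPM in the males and 5.51, 10.97, 0.963 and 1.05 CPM in the females. It ordered the libraries much as Kdr did, with a log2 range of 3.15 (edgeR adjusted p = 0.00148). Flt4, the receptor of Vegfc, rose by 1.86 in litter 2 (SE 0.25, edgeR adjusted p = 0.00146), from 0.694 to 4.36 CPM over the 8 libraries. The ligand Vegfd, listed under its older symbol Figf, had 2 to 18 counts, and its log2 range of 2.43 did not pass (0.0619).

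Of 5 tested genes of the angiopoietin family and partners of Tek, 1 rose in litter 2 and 2 fell in litter 3, where 14.8% of all genes did. Neither fall was called when the male or the female of litter 3 was left out. Ptprb, the phosphatase that acts on Tek, rose by 1.85 in litter 2 (SE 0.26, edgeR adjusted p = 0.00184). Angptl2, a secreted relative of the angiopoietins, rose in litter 4 instead (0.46, SE 0.06, edgeR adjusted p = 0.00215). Of 14 tested signalling genes and targets, 9 rose in litter 2, where 3.3% of all genes did. Without the female of litter 2, 3 of them were called. Those 3 were Nos3, the endothelial nitric oxide synthase (2.02, SE 0.24, edgeR adjusted p = 0.000655), Pdgfb, which recruits pericytes (1.83, SE 0.19, 0.000374), and the receptor Notch1 (1.51, SE 0.17, 0.000405). Efnb2, a ligand of arterial endothelium, rose by 1.68 (SE 0.20, edgeR adjusted p = 0.000748). In litter 3, 6 of the 14 fell, with 4 called without the male and 3 without the female of that litter. Pdgfb fell there by 1.84 (SE 0.28, edgeR adjusted p = 0.000551) and Apln, a peptide of sprouting tips, by 1.77 (SE 0.32, 0.00186).

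Oxygen sensors and regulators of Vegfa were tested as 7 genes, of which 5 differed between litters, where 32.1% of all genes did. It fell to 2 when either library of litter 1 was left out, and to 3 when the female of litter 2 or either library of litter 3 was. In litter 3, where 28.3% of all genes were called, 2 of the 7 were higher and 3 lower, and without the female of that litter 1 was called. The 2 higher were Arnt, the partner of the hypoxia-inducible factors (0.20, SE 0.06, edgeR adjusted p = 0.0278), and Ppargc1a, a coactivator that can raise Vegfa (0.26, SE 0.06, 0.00843). The call of Arnt was lost when any of the 4 libraries of litters 1 and 3 was left out, and in DESeq2. The 3 lower, like Vegfa, were Egln1 (-0.26), Egln3 (-0.30) and Epas1. Egln3 was also called higher in litter 1 (0.32, and 0.28 to 0.36 without single libraries), as Vegfa was. The part of these genes in the level of Vegfa was not tested. Epas1, a hypoxia-inducible factor found in endothelium as well as muscle, had 63.7, 66.0, 38.5 and 53.6 CPM in the males of litters 1 to 4 and 74.0, 105, 44.0 and 63.2 CPM in the females. It fell by 0.75 in litter 3 (SE 0.09, edgeR adjusted p = 0.000169). Hif1a, the other main oxygen-regulated factor, had a log2 range of 0.35 over litters and did not pass (edgeR adjusted p = 0.0513), but passed in DESeq2, with DESeq2 size factors, with library size alone and with no filter. It was called lower in litter 4 (-0.27, SE 0.08, edgeR adjusted p = 0.0491), a call kept in 2 of 8 fits without 1 library and at -0.10 (0.534) without the female of litter 4. In litter 2 Epas1 was at 0.61 (SE 0.09, edgeR adjusted p = 0.00174, and 0.38 with 0.0638 without the female of that litter) and Vegfa at 0.15 (SE 0.06, 0.228), and the difference between them was not tested.

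By sex, no member passed. In edgeR 0 of 9 were called, against 0.0436% of all genes (0.0363% higher and 0.00726% lower in males), 0 had an unadjusted p under 0.05, and DESeq2 gave 0 and 0. The receptors had fewer counts in males on average, at -0.95 for Kdr (SE 0.74), -0.37 for Flt1 (SE 0.80), -0.53 for Tek (SE 0.60) and -0.67 for Tie1 (SE 0.69), and every edgeR adjusted p was 0.999612. Without the female of litter 2, Kdr stood at -0.14 and Flt1, Tek and Tie1 turned to 0.53, 0.19 and 0.19. Over the 8 fits without 1 library, Kdr ran from -1.89 to -0.14. Within litters, Kdr was higher in the female of litters 1 and 2 and lower, by little, in the female of litters 3 and 4. With litter as a replicate block, Kdr had -0.92 (SE 0.29, unadjusted p = 0.00857, edgeR adjusted p = 0.3) and Angpt1, higher in the male of 3 of 4 litters, 0.26 (SE 0.08, unadjusted p = 0.00923, edgeR adjusted p = 0.305). Those 2 of 9 members had an unadjusted p under 0.05 in the blocked fit, as did 11.6% of all genes, and 0 of 9 passed after adjustment against 0.211% of all genes (0.152% higher and 0.0581% lower in males).

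The markers by sex are given beside these values. The endothelial list had a median of -0.71 for male minus female, with 17 of 18 genes below 0 and 0 called, and the atrial cardiomyocyte list a median of 0.91, with 7 of 8 genes above 0 and 0 called. Summed atrial markers were 157, 450.4, 224 and 213 CPM in the males of litters 1 to 4 and 117, 87.0, 184 and 165 CPM in the females. The fibroblast list had a median of 0.75 with 10 of 10 genes above 0, of which 0 were called without the block and 6 with it. The part of these lists in the values of Kdr and Angpt1 by sex was not tested. Among the 37 pathway genes 0 passed by sex, and with the block 1 did, Thbs1, an inhibitor of vessel growth that rose by 1.22 in males (SE 0.17, edgeR adjusted p = 0.0117). With litter 2 left out of the blocked fit it stood at 1.02 (SE 0.19, edgeR adjusted p = 0.0745) and 0 pathway genes passed. Fibroblasts are among the cells known to make Thbs1, and the fibroblast values by sex stand beside it.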

How the data were processed

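Per the labels' protocols, RNA of purified cardiomyocytes was column-purified, and stranded total RNA libraries were read as single ends. The authors deposited raw read counts per gene symbol, 48440 entries in 8 columns, with 0 columns of other samples and 2 repeated names. The submitters' processing notes name STAR 2.7.3a and mm10, while the counting program, annotation and strand setting are not given in the sources used here. The labels call the molecule poly(A) RNA although the named kit is for total RNA.

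Counts were analysed in R 4.3.3 with edgeR 4.0.16, with DESeq2 1.42.0 as an alternative. Genes were filtered with filterByExpr on sex (13771 kept) and scaled with TMM, which also scales the CPM (counts scaled to the size of the library) printed here. Sex was tested without a litter term and litter with a sex term, by quasi-likelihood F tests with Benjamini-Hochberg adjustment over all tested genes and a threshold of 0.05. Each standard error was taken as the absolute log2 fold change over the root of its F value. Levels were divided by the exon union of GENCODE M21 on GRCm38, the assembly that mm10 names. Log2 CPM used a prior count of 2.

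The labels state that equal numbers mark a shared litter, so they pair a male with a female. Deviations from the sex means correlated at 0.51, 0.50, 0.70 and 0.37 in the pairs of litters 1 to 4. The design gives 2 libraries per litter. No 2 libraries of a sex were alike within sampling noise, with chi-square per degree of freedom from 10.5 to 49.9.

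Members, gene lists and tests were chosen with earlier results of these data known. The named genes are the 10 members, genes of a pathway list that passed a test or were few, marker lists by cell type, and the 5 tested genes most like Vegfa and Kdr by Pearson's r. On simulated counts for 13771 genes with 200 changed, the sex test recovered 86% of genes changed by 1 and 97% of genes changed by 2 on the log2 scale, and the litter test 74% and 95%. False calls made up 8.5% and 7.65% of calls. The counts for the sex test were simulated with no difference between litters. That test has no litter term, so its recovery cannot be carried over to these data, where litters differ.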

Additional observations from a re-analysis of the deposited data

Results flagged for a closer look

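In 4 of 42 groups of 4 libraries, 1 library stood apart from the rest, and about 2.1 such groups would be flagged by chance. Kdr had 11.9 CPM in the male of litter 2, against 2.01 to 3.57 CPM in the other males. Angpt2 had 0.0803 CPM in the male of litter 1, which is 2 counts, against 0.416 to 0.477 CPM. The summed lymphatic markers were 4.86 CPM in the female of litter 2, against 3.51 to 3.61 CPM in the other females. The summed mural markers were 424 CPM in the female of litter 3, against 907 to 986 CPM. The groups use the same libraries and are not independent.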

How the results depend on the processing

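With the replicate block, which pairs litter mates, 29 genes passed the test of sex, and 22 without litter 2, against 6. The block added 1 pathway gene and 1 endothelial marker but no member. Without litter 3, 1898 genes passed the litter test. Without litter 2 it called 4586 of 13740 genes, among them 3 of 9 members and 2 endothelial markers. In litter 3, DESeq2 called 2790 of 13771 genes and 3 of 9 members. With no filter on low counts, 24853 genes were tested, and litter 2 had 1249 genes. Litter 4 had 2072 genes, 4 members, 10 pathway genes and 5 endothelial markers. Its members besides Vegfa were Kdr (-0.81, edgeR adjusted p = 6.37e-05), Tek (-0.71, 0.00118) and Tie1 (-0.54, 0.0207), all lower. Litter 3 had 4309 genes and 6 members, with Tek, lower, among them. Litter 1 had 2380 genes, 9 pathway genes and 1 endothelial marker. With library size alone, litter 4 had 8 pathway genes. That scaling also turned the balance over all genes to 2419 higher and 1698 lower in litter 3, against 1871 and 2032, and to 262 and 1501 in litter 4, against 648 and 799.

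Without single libraries, litter 1 had 359 to 1869 genes, 1 to 2 members, 0 to 4 pathway genes and 0 to 2 endothelial markers. Litter 2 had 153 to 752 genes, 2 to 4 members, 7 to 16 pathway genes and 7 to 19 endothelial markers. Litter 3 had 1704 to 3791 genes, 2 to 6 members, 6 to 20 pathway genes and 2 to 15 endothelial markers. Litter 4 had 322 to 1302 genes, 0 to 2 members, 1 to 5 pathway genes and 0 to 4 endothelial markers. A litter left with 1 library is assumed to vary like the others. The 6 members of the litter test passed in each of these 8 fits. The difference by sex changed sign for Vegfa (-0.10 to 0.063), Vegfc (-0.10 to 0.045, and 0.015 with the block and no litter 2), Angpt1 (-0.14 to 0.68), Flt1 (-1.14 to 0.53), Tek (-1.25 to 0.19) and Tie1 (-1.36 to 0.19). The cause was not tested.

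The fits without both libraries of litter 1, 2 or 4, and the block without litter 2, were chosen after seeing the data.

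By longest transcript, levels were 139, 147, 0.256, 0.527 and 1.22 CPM per kilobase for Vegfa, Vegfb, Pgf, Flt1 and Kdr. With the 4 defining markers, the SD of Tek minus the list was 0.39. Depth limits Angpt2 and Pgf most.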

Other observations

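Ligand and receptor levels moved apart between libraries. Per kilobase, Vegfa was between 46.6 times Kdr, in the female of litter 2, and 575 times Kdr, in the male of litter 1, with a median of 249.8 over the 8 libraries. Angpt1 was between 2.21 times Tek, in the female of litter 2, and 25.6 times Tek, in the male of litter 3. Kdr was 1.65 to 11.6 times Flt1, and the highest value rests on 4 counts of Flt1 in the female of litter 3.

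The genes most like Angpt1 over the 8 libraries were looked up after its values were seen. They were Tg, Radil, Smug1, Gm45010 and Rassf5, with Pearson's r from 0.97 to 0.99 on log2 CPM. Tg ran from 6.83 to 13.1 CPM and Radil from 5.31 to 13.6 CPM. None of the 5 is on the pathway or marker lists.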
